A study of Mus musculus with 2 samples.

Results

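Arterial endothelial cells of the mouse aorta were described by droplet-based single-cell RNA sequencing in 1 wild-type (WT) library and 1 library titled Kif13b-/-. The members were selected on measured values. Barcodes with at least 1000 UMIs (unique molecular identifiers, which count captured transcripts) and at most 20% mitochondrial UMIs were kept. An endothelial gate then asked for at least 3 UMIs, and at least 1500 counts per 1000000 UMIs (CPM), of Cdh5, Pecam1, Egfl7, Tie1 and Cldn5 summed. A gated barcode was called arterial where an arterial panel (Gja5, Sema3g, Sox17, Bmx and Stmn2) had at least 2 UMIs and strictly more than a venous panel (Selp, Ackr1, Sele and Emcn) and a capillary panel (Gpihbp1, Cd300lg, Rbp7 and Btnl9). The rule found 493 arterial barcodes of 28892 in all, 383 in the WT and 110 in the Kif13b-/- library. The same gate held 459 venous and 161 capillary barcodes, which served as the nearest comparison classes.

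Both libraries are labelled as aorta. The second is written Kif13b-/- in its title and Kif13b knock down in its genotype label, and is called the Kif13b-/- library here. Kif13b encodes a kinesin that moves cargo along microtubules, and the title of the series places the question in macrophages and in the receptor MERTK. Strain, age, diet, the deleted part of the gene and the number of animals behind each library were not given in the labels. Xist had 1 and 0 UMIs in arterial barcodes while the Y-linked Ddx3y stood at 144 and 126 CPM, so both libraries carried male transcripts. Since each genotype is 1 library, no p-value is given, and every 95% interval covers counting error only.

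Arterial endothelium lines vessels under high pressure and fast laminar flow. Its identity is set in development by VEGF signalling, Notch receptors with their ligands Dll4 and Jag1, the Notch targets Hey1 and Hey2, and SOXF transcription factors such as Sox17. In the aorta these cells are joined by connexins, deposit part of the elastic and basement membrane matrix beneath them, and express the shear-responsive factors Klf2 and Klf4. Where flow is disturbed they express adhesion molecules and chemokines that recruit leukocytes.

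Promoters are shown first for 4 genes on which the results turn. They are RefSeq sequences of GRCm38.p6, from 250 bases before to 50 after the annotated start, read 5′ to 3′ on the strand of the gene. Hey2 and Fbln5 stand for genes higher in arterial than in other endothelial barcodes, Klk10 for the shear-responsive members of that set, and Col4a2 for the few basement membrane genes called higher in the Kif13b-/- library. Capitals mark the RBPJ core TGGGAA in Hey2, that core and the SOX core AACAAT in Fbln5, the KLF core GGGTG in Klk10, and the CCAAT box and the GC box (GGGCGG) in Col4a2, each on either strand. The Hey2 window lies at chr10:30842734-30843033 on the minus strand, that of Fbln5 at chr12:101819070-101819369 on the minus strand, that of Klk10 at chr7:43780804-43781103 on the plus strand and that of Col4a2 at chr8:11312555-11312854 on the plus strand.
Hey2: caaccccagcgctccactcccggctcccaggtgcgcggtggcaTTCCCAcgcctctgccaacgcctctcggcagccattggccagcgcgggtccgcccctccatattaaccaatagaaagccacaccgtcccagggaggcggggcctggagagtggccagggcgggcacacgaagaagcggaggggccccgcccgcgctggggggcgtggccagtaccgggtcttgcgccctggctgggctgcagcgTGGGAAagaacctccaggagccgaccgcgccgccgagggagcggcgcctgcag
Fbln5: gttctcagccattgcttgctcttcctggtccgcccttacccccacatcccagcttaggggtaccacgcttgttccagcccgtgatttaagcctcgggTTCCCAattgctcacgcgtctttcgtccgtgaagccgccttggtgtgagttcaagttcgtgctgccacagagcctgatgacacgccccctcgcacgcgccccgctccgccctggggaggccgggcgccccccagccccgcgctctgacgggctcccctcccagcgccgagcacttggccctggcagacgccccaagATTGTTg
Klk10: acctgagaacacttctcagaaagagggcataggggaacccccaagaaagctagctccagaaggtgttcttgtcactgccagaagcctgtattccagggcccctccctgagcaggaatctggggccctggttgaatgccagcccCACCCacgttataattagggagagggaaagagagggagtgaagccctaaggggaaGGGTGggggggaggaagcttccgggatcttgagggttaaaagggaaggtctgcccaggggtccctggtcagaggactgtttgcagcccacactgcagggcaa
Col4a2: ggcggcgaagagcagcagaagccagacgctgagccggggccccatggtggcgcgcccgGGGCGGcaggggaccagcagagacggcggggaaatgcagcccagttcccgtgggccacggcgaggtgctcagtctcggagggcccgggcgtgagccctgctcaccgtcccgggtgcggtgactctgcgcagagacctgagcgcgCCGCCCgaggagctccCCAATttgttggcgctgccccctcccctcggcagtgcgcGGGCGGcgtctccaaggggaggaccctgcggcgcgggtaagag

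The Hey2 window held 2 RBPJ cores, the Fbln5 window 1 RBPJ and 1 SOX core, and the Klk10 window 2 KLF cores. The table lists 2 promoters of Fbln5, and the one with more of these letters is shown. Of the 79 genes called higher in arterial barcodes below that are not in the panel, 68 had a promoter in the RefSeq table, 93 windows in all. The SOX core stood in 8 of these 93 windows, against 5.85% of the 6498 windows of all compared genes. The RBPJ core stood in 21.5% against 21.5%, and the KLF core in 63.4% against 63.4%. Over all 32851 windows of the table the shares were 10.7%, 25.6% and 57.5%. The RBPJ and KLF cores were therefore about as frequent in windows of the arterial genes as in those of compared genes. The SOX core lay between its shares in compared and in all windows, and 8 windows are too few to tell a difference. The capitals mark letters, not measured binding sites. Col4a1 and Col4a2 are transcribed away from each other, and their windows share 78 bases. The Col4a2 window held 1 CCAAT box and 3 GC boxes, letters that 37.4% and 35.7% of all windows hold.

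The 2 libraries differed in depth. Arterial barcodes had a median of 3040 UMIs (1002 to 48201) and 1652 genes in the WT library, and 5348.5 UMIs (1014 to 41887) and 2508 genes in the Kif13b-/- library. Their summed depth was 1618044 and 792780 UMIs, and their median mitochondrial share 5.38% and 6.26%. The files held 21126 and 7766 barcodes, both above the 6000 cells loaded per channel, which leaves fewer whole cells than barcodes. Barcode sequences present in both libraries numbered 52, of which 2 WT and 1 Kif13b-/- barcodes were arterial.

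Many members lay close to the edge of the rule. The arterial panel had a median of 4 UMIs (highest 54) in WT and 5 UMIs (highest 95) in Kif13b-/- members. Exactly 2 panel UMIs were held by 109 and 17 members, and 4 or more by 216 and 75. No UMI of the other panels was seen in 241 and 54 members, and 31 and 11 led by a single UMI. Just outside, 106 and 21 gated barcodes held 1 arterial UMI, and 14 and 3 had a tie. Members with exactly 2 panel UMIs had median depths of 2130 and 2542 UMIs, against 4358.5 and 7073 for those with 4 or more. Members further inside the rule were the deeper barcodes in both libraries.

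The arterial label was checked against its markers. Of the 5 markers Gja5, Sema3g, Sox17, Bmx and Cldn5, the first 4 belong to the panel and the last to the gate, so their summed level (1944 CPM in WT and 1539 CPM in Kif13b-/- arterial barcodes, against 371 and 316 CPM in venous ones) follows from the rule. In capillary barcodes the same sum was 1176 and 1469 CPM, because Cldn5 and Sox17 are high there as well. Gja5, a connexin of arterial gap junctions, stood at 305 and 391 CPM in arterial, 45.4 and 27.7 CPM in venous and 13.1 and 13.0 CPM in capillary barcodes. Sox17 was at 236 CPM in arterial and 190 CPM in capillary WT barcodes, but at 129 against 220 CPM in the Kif13b-/- library, so there the capillary class was the higher one. Cldn5, a tight junction protein, was at 762 against 883 CPM in WT and 576 against 1119 CPM in Kif13b-/- barcodes, higher in the capillary class in both. Of 29 listed arterial genes outside the rule, 10 were also higher in arterial barcodes of both libraries, as described below.

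Most members also carried RNA of other cell types. Barcodes with at least 3 UMIs, and at least 1000 CPM, of the markers of smooth muscle, fibroblasts, chondrocytes or macrophages are called mixed. They were 277 of 383 WT members (72.3%, exact binomial interval 67.6 to 76.7%) and 78 of 110 Kif13b-/- members (70.9%, 61.5 to 79.2%). Mixed barcodes made up 83.6% and 67.8% of the venous and 37.1% and 17.8% of the capillary class. Smooth muscle markers (Myh11, Acta2, Tagln, Cnn1, Myl9) summed to 3231 and 3474 CPM in arterial barcodes and to 24104 and 23057 CPM in smooth muscle barcodes. Fibroblast markers (Dcn, Lum, Pdgfra, Col1a1, Dpt) summed to 3972 and 3850 CPM, against 18857 and 17066 CPM in fibroblast barcodes.

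The markers that differed most between the libraries, in level or in share of members, were those of rarer types. Macrophage markers were carried by 16.7% of WT and 35.5% of Kif13b-/- members, with summed levels of 872 and 1004 CPM. Pericyte markers were carried by 20.4% and 40.9%, at 570 and 901 CPM. These shares are at full depth, which was greater in the Kif13b-/- library, and were not compared after thinning. For both types the summed levels differed less than the shares. Neutrophil markers were at 216 against 35.3 CPM, chondrocyte markers at 619 against 406 CPM and adipocyte markers at 274 against 15.1 CPM, with Adipoq, Plin1 and Cidec at 0 in the Kif13b-/- library. T cell markers were at 9.27 CPM in WT, and all 4 were at 0 in Kif13b-/- members. Lymphatic endothelial markers were near the floor at 24.7 and 51.7 CPM in arterial barcodes, although they reached 2511 CPM in the WT capillary class against 74.6 CPM in the Kif13b-/- one. Endocardial markers were at 95.8 and 115 CPM.

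Without the mixed barcodes 106 WT and 32 Kif13b-/- members remained, with median depths of 4521.5 and 7681.5 UMIs. In them smooth muscle markers stood at 170 and 210 CPM, fibroblast markers at 133 and 187 CPM, macrophage markers at 35.7 and 46.0 CPM and pericyte markers at 17 and 23 CPM. The smooth muscle, fibroblast and macrophage sums are low there by the definition of mixed barcodes, which did not use pericyte markers. Adipocyte markers were at 739 CPM in WT and 0 in Kif13b-/- members, but only 3 of all WT members carried them, so this level is that of a few barcodes. The gate genes stood at 5404 and 4482 CPM, against 2781 and 2747 CPM in mixed barcodes. In these unmixed members the arterial panel stood at 2020 CPM in WT and 1541 CPM in Kif13b-/-. The venous panel stood there at 231 and 342 CPM and the capillary panel at 40.9 and 145 CPM. Results between genotypes are given below over all members and over those that were not mixed.

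**Figure D1:**
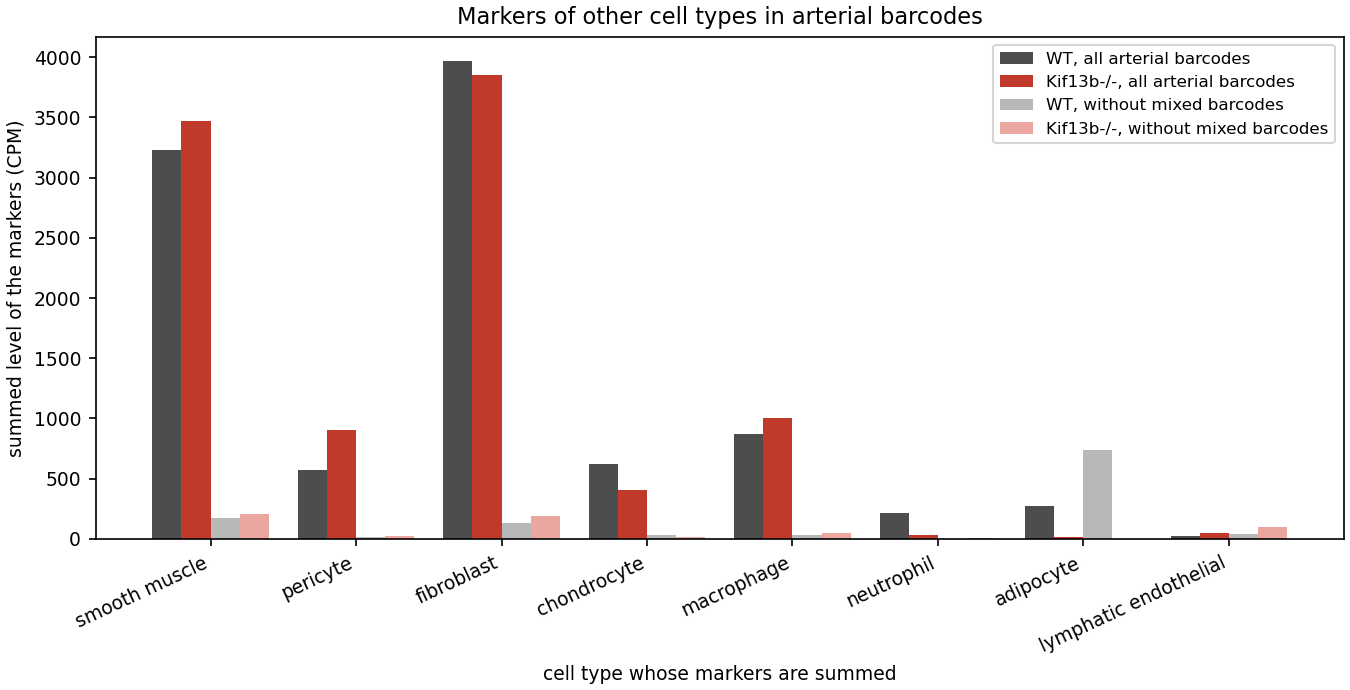
Summed level of marker genes of 8 other cell types, in CPM, in arterial endothelial barcodes of the WT and Kif13b-/- libraries, with all members and without mixed barcodes. Smooth muscle markers stand at 3231 and 3474 CPM over all members and at 170 and 210 CPM without mixed barcodes, a fall that follows from the definition of mixed barcodes. Without mixed barcodes WT adipocyte markers, carried by 3 of all WT members, stand at 739 CPM.

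Arterial barcodes were next compared with venous and capillary ones. This is a description, since the rule used the counts of the same cells. A gene is called higher where its CPM was at least 2-fold above the venous and above the capillary class in both libraries, 4 ratios in all, and lower in the mirror case. Of 6303 genes with at least 50 UMIs over the 3 classes in each library, 83 (1.32%) were higher and 111 (1.76%) were lower. Of 29 listed arterial genes outside the rule, 10 were higher and 0 lower: Hey2, Gja4, Jag1, Vegfc, Fbln5, Fbln2, Ltbp4, Eln, Alpl and Htra1. The median log2 ratio of that list was 1.01 in WT and 1.22 in Kif13b-/- barcodes over the venous class, and 1.13 and 1.01 over the capillary class. The same medians over all compared genes were 0.04 and -0.04, and -0.08 and -0.08.

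Among connexins and Notch genes, Gja4, which pairs with Gja5 in arterial gap junctions, stood at 188 CPM in WT arterial barcodes, against 49.9 in venous and 39.4 in capillary ones. In the Kif13b-/- library its levels were 249, 44.3 and 48.5 CPM. The Notch ligand Jag1 was at 389, 135 and 57.4 CPM in WT arterial, venous and capillary barcodes, and at 286, 117 and 41.0 CPM in Kif13b-/- ones. Hey2, the Notch target whose promoter is shown above, was at 81.0, 34.4 and 13.1 CPM and at 80.7, 21 and 1.87 CPM. These 3 genes were highest in arterial barcodes of both libraries. Other arterial genes of the developing embryo were shared with capillaries. Dll4, the Notch ligand of tip and arterial cells, was at 104, 50.6 and 75.4 CPM in WT and 103, 57.5 and 106 CPM in Kif13b-/- barcodes. Efnb2, the arterial ephrin, was at 290.5, 141 and 356 CPM and at 242, 150.5 and 282 CPM. Hey1 followed the same order in both libraries, with 77.2 CPM in WT arterial against 82.0 CPM in WT capillary barcodes.

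Genes of the elastic matrix and of large arteries formed the other main group. Of 16 listed large-vessel genes, 6 were higher: Gkn3, Cytl1, Fbln5, Eln, Pi16 and Klk10. Fbln5, a fibulin needed to assemble elastic fibres, stood at 1048 CPM in WT arterial barcodes, 329 in venous and 190 in capillary ones, and at 1323, 206 and 328 CPM in the Kif13b-/- library. Elastin itself, Eln, was at 1004, 396 and 295 CPM and at 1367, 193 and 76.5 CPM. In the Kif13b-/- library a single arterial barcode held 417 of 1084 Eln UMIs and 262 of 1049 Fbln5 UMIs. Ltbp4, which anchors latent TGF-beta to elastic fibres, was at 978, 436 and 366 CPM and at 931, 376 and 267 CPM. Smooth muscle barcodes held Eln at 1096 and 1069 CPM. The capillary class held fewer mixed barcodes, so ratios over it compare unlike shares of them. Without mixed barcodes the WT and Kif13b-/- arterial levels were 1100 and 1206 CPM for Eln and 1159 and 1466 CPM for Fbln5. Those of Ltbp4 were 1214 and 1144 CPM.

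Gkn3, a secreted protein of arterial endothelium, was at 103 and 25.9 CPM in WT arterial and venous barcodes and at 163 and 45.4 CPM in Kif13b-/- ones, and was listed at 0 in the capillary class of both libraries. Cytl1, a secreted cytokine-like protein, stood at 1638, 572 and 16.4 CPM and at 2019, 532 and 41.0 CPM. Klk10, a shear-induced secreted protease, was at 31.5, 3.89 and 0 CPM and at 58.0, 15.5 and 1.87 CPM. Pi16, a peptidase inhibitor raised by laminar flow, was at 98.9, 25.3 and 6.56 CPM and at 169, 34.3 and 3.73 CPM. All 4 were lowest in capillary barcodes. The flow-sensing factor Klf2 differed less between the classes, at 999, 491 and 754.5 CPM in WT and 998, 387 and 556 CPM in Kif13b-/- barcodes. Nos3, the endothelial nitric oxide synthase, was at 162.5, 79.1 and 64.0 CPM and at 179, 90.7 and 72.7 CPM.

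Signalling and transport genes were also among those with the largest arterial ratios. Ptprj, a receptor tyrosine phosphatase, was at 837, 201 and 55.8 CPM in WT and 879, 112 and 55.9 CPM in Kif13b-/- arterial, venous and capillary barcodes. It is not specific to endothelium, since macrophage barcodes held 934 and 891 CPM. Another phosphatase, Ptprr, was at 129, 14.3 and 16.4 CPM and at 74.4, 17.7 and 9.32 CPM. A calcium pump, Atp2a3, was at 188.5 against 38.9 CPM in WT arterial and venous barcodes, and the pump Atp2b2 at 59.3 against 14.3 CPM. Nos1ap, an adaptor of neuronal nitric oxide synthase, was at 95.2 and 21.4 CPM in WT and at 161.5 and 33.2 CPM in Kif13b-/- arterial and venous barcodes. Pcsk5, a proprotein convertase, was at 210.1 and 62.9 CPM and at 129 and 36.5 CPM. Vegfc, the ligand of lymphatic growth, was at 189, 50.6 and 8.20 CPM and at 90.8, 24.3 and 9.32 CPM, highest in arterial barcodes of both libraries.

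The macrophage lysozyme Lyz2 also met the criterion, at 551 and 167 CPM in WT and 597 and 68.6 CPM in Kif13b-/- arterial and venous barcodes. In WT, 437 of its 891 UMIs lay in 1 barcode. Without mixed barcodes its arterial level was 18.7 and 32.9 CPM, against 7905 and 10342 CPM in macrophage barcodes. Lyz2 is itself among the macrophage markers (C1qa, C1qb, C1qc, Csf1r and Lyz2) that define mixed barcodes. Its lower level without them therefore follows in part from that definition.

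Among the genes lower in arterial barcodes, the water channel Aqp1 stood at 103 CPM in WT arterial barcodes, against 989 in venous and 769 in capillary ones, and at 102, 1317 and 815 CPM in the Kif13b-/- library. Kdr, the main VEGF receptor, was at 37.1, 141 and 620 CPM and at 71.9, 279 and 591 CPM. Nrp2, a co-receptor for VEGFC and semaphorins, was at 41.4, 374 and 364 CPM and at 37.8, 489 and 464 CPM. Aplnr, the apelin receptor, was at 1.24 CPM in WT and 1.26 CPM in Kif13b-/- arterial barcodes, against 25.9 and 134 CPM in venous ones. All 4 genes were lowest in arterial barcodes of both libraries.

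Of 20 listed capillary and lipid-handling genes outside the rule, 0 were higher and 5 were lower (Aqp1, Cd36, Fabp4, Kdr and Slc28a2). Cd36, a fatty acid transporter, was at 252, 602 and 3851 CPM in WT and at 249.8, 735 and 3261 CPM in Kif13b-/- barcodes. Fabp4, a cytosolic fatty acid carrier, was at 1675, 3556 and 19281 CPM and at 1236, 4854 and 22725 CPM. This list had medians of -0.65 and -1.41 over the venous class and -2.88 and -3.34 over the capillary class. Among 17 venous genes outside the rule, 2 were lower (Tmem252 and Aplnr), and the venous panel gene Selp, P-selectin, was at 110 against 1508 CPM in WT and 199 against 2181 CPM in Kif13b-/- barcodes. In the list of elastic fibre and basement membrane genes, 4 of 27 compared members were higher in arterial barcodes (Eln, Fbln2, Fbln5 and Ltbp4) and 4 were lower (Lamb1, Nid1, Nid2 and Col15a1).

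**Figure D2:**
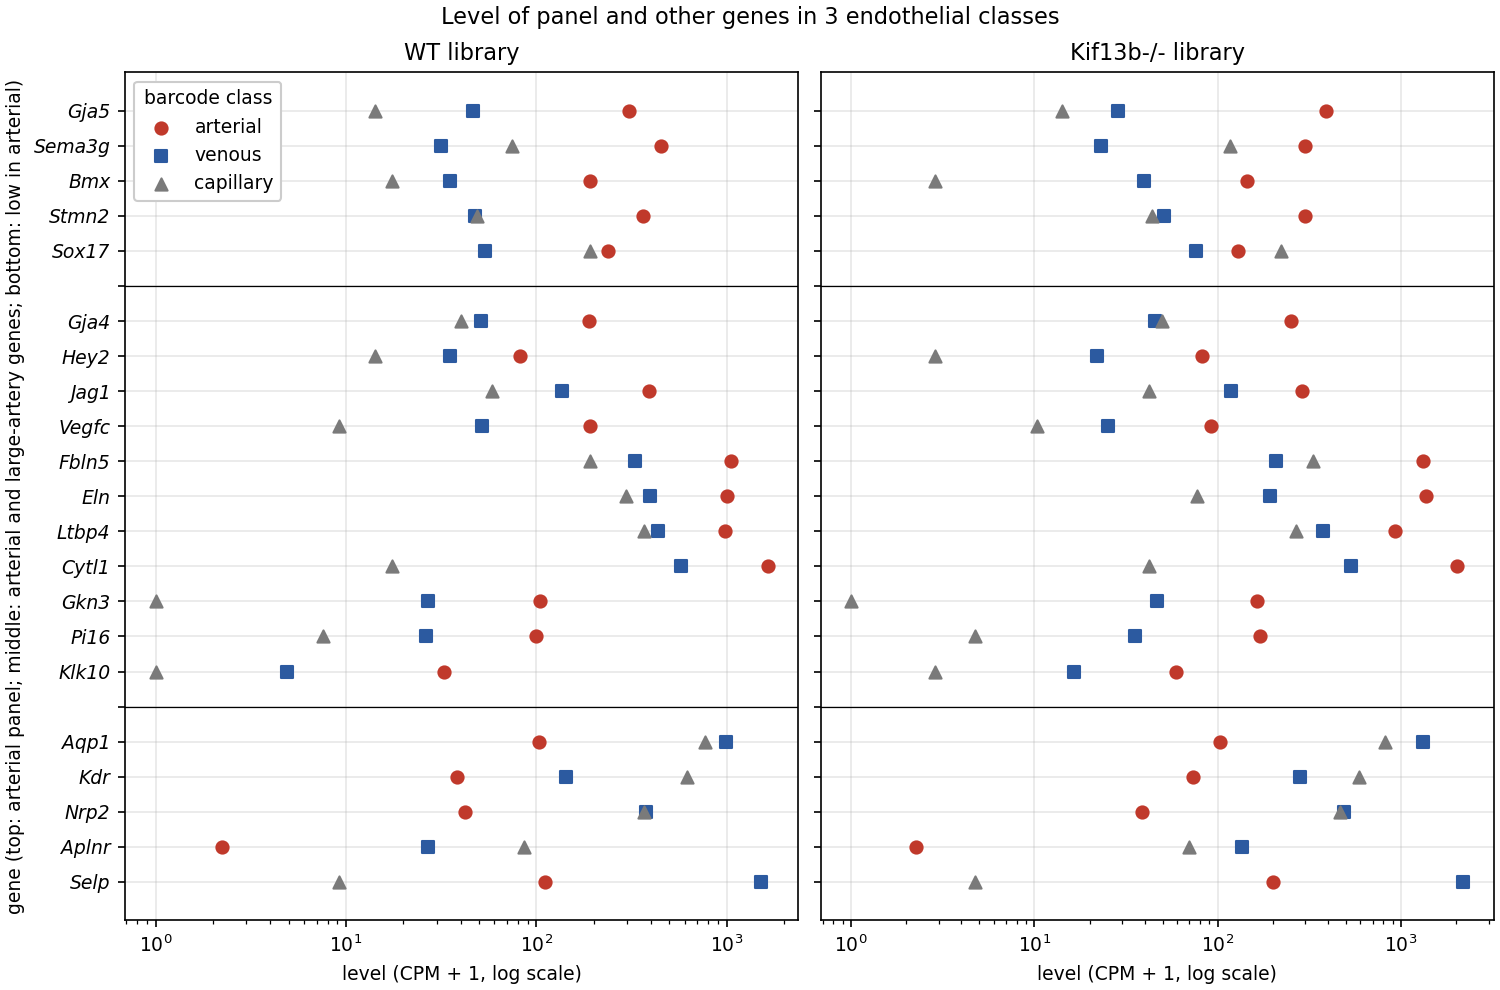
Level in arterial, venous and capillary endothelial barcodes (CPM plus 1, log axis) of panel genes (top), arterial genes outside the rule (middle) and genes lower in arterial barcodes (bottom, Selp only against the venous class), WT on the left and Kif13b-/- on the right. The middle genes lie highest in arterial barcodes of both libraries, for example Gja4 at 188 and 249 CPM, whereas Sox17 in the Kif13b-/- library lies higher in capillary barcodes (220 CPM) than in arterial ones (129 CPM).

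The arterial share of the endothelium was 29.5% in the WT library (383 of 1299 gated barcodes, exact binomial interval 27.0 to 32.0%) and 35.0% in the Kif13b-/- library (110 of 314, 29.8 to 40.6%). The ratio of Kif13b-/- over WT was 1.19 with a counting interval of 0.952 to 1.47, so a difference was not detectable at this depth. Of all barcodes past the UMI and mitochondrial filters, 2.27% (2.05 to 2.50%) were arterial in WT and 1.60% (1.32 to 1.93%) in Kif13b-/-, a ratio of 0.707 (0.567 to 0.876). The direction of the share thus depended on the denominator, and it also turned without the mixed barcodes (0.759) and with the gate at 3000 CPM (0.909). With the gate and panels applied after thinning every barcode to 1000 UMIs, which left 144 and 25 members, the ratio was 0.695.

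Within arterial barcodes the targeted gene was read first. Kif13b (chr14:64647265-64809617, plus strand, mm10) was at 78.5 CPM in WT (127 UMIs) and 55.5 CPM in Kif13b-/- barcodes (44 UMIs). The log2 ratio of Kif13b-/- over WT was -0.49 (-1.03 to 0.01), and its interval held 0. Without the top barcode of each library, 5 of the WT and 6 of the Kif13b-/- UMIs, it was -0.63 (-1.21 to -0.11), past 1.5-fold with an interval below 0. Without mixed barcodes it was -0.15. In the other endothelial barcodes it was -0.63, with an interval below 0. With barcodes thinned to 1000 UMIs, 7.31% (4.91 to 10.4%) of WT and 3.64% (1.00 to 9.05%) of Kif13b-/- members had a Kif13b UMI. The Kif13b-/- share rested on 4 barcodes, and the intervals overlapped. A 3′ tag count may lie outside the deleted part, so it checks nothing about the genotype label. Mertk, the receptor for dying cells named in the title, was at 114 and 112 CPM (-0.02, -0.41 to 0.35).

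Each gene was then compared between the libraries, with a call where the ratio was at least 1.5 and its counting interval did not hold 1. Of 6623 genes with at least 50 arterial UMIs, 240 (3.62%) were higher and 319 (4.82%) lower in the Kif13b-/- library. The median log2 ratio was -0.04. Without mixed barcodes 222 (6.41%) of 3464 genes were higher and 257 (7.42%) lower, with a median of -0.02. These barcodes are a subset of the members, so both sets of calls share counts. Of the 66 higher and 125 lower genes that could be compared there, 42 and 73 were called again. Another cell class held 38 of the higher and 67 of the lower genes at over 10 times the arterial level. In the other endothelial barcodes 36 of 234 higher and 58 of 315 lower genes were called the same way, and 28 and 20 the opposite way. For these counts and for those of other cell classes, the share over all genes compared is not given. They are therefore not read as more or fewer than among all genes. The called genes are given below by gene group. Counts within a list stand beside the shares over all genes, 3.62% and 4.82%, or 6.41% and 7.42% without mixed barcodes.

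Leukocyte adhesion molecules and chemokines were called higher in 7 of 20 members and lower in 0 over all arterial barcodes, with a list median of 0.31. Over all compared genes 3.62% were higher and 4.82% lower. Il6, a pro-inflammatory cytokine (chr5:30013114-30019981, plus strand), was at 103 CPM in WT (167 UMIs in 77 barcodes) and 457 CPM in Kif13b-/- members (362 UMIs in 62 barcodes), a log2 ratio of 2.14 (1.88 to 2.42). Without mixed barcodes it was at 51.1 and 108 CPM (1.08, 0.33 to 1.85), and in other endothelial barcodes the ratio was 0.29. At full depth 20.1% of WT and 56.4% of Kif13b-/- members had an Il6 UMI. After thinning the shares were 9.40% (6.67 to 12.8%) and 35.5% (26.6 to 45.1%), with 5.93% and 5.03% of macrophage barcodes thinned alike. Across all settings run Il6 stayed higher, with log2 ratios from 1.08 to 2.84. In mixed barcodes Il6 was at 133 and 674 CPM. Pericyte barcodes held Il6 at 865 CPM in WT and 1150 CPM in the Kif13b-/- library, above the arterial level in each. The part of pericyte and macrophage RNA, whose markers are given above, in the arterial Il6 level was not tested.

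Cxcl12, the chemokine ligand of CXCR4 (chr6:117168535-117181367, plus strand), stood at 193 and 414 CPM (312 and 328 UMIs), a log2 ratio of 1.10 (0.87 to 1.33). A single Kif13b-/- barcode held 116 of its 328 UMIs. The ratio was 0.68 without the top barcode of each library, 0.44 without barcodes over 10000 UMIs and 1.97 without mixed barcodes. In the other endothelial barcodes it was 0.87, so the sign was the same in each of these subsets. Capillary barcodes held Cxcl12 at 992 CPM in WT and 1635 CPM in the Kif13b-/- library, above the arterial level in each. Unmixed Kif13b-/- members held more of the capillary panel than unmixed WT members, and its part in the ratio of 1.97 was not tested.

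Ccl2, a monocyte chemokine, was at 100 and 570 CPM over all members (2.51, 2.25 to 2.78), but at 3.40 and 3.29 CPM without mixed barcodes. Selp was at 110 and 199 CPM (0.86, and 0.48 without mixed barcodes). E-selectin, Sele, had 15 of 25 Kif13b-/- UMIs in 1 barcode and a ratio of 0.13 without the top barcodes. Selp and Sele are venous panel genes, so the rule used their counts. The adhesion molecule Icam1 was at 488 and 621 CPM (0.35), Vcam1 at 1063 and 1370 CPM (0.37), and neither was called. Without mixed barcodes 2 of 15 members of the list were higher (Cxcl12 and Il6) and 1 lower (Cxcl1, -1.42), and the median was -0.25. The sign of the list median therefore differed without mixed barcodes, where 15 rather than 20 members were compared. The medians thus cover different genes, and Ccl2 was not compared without mixed barcodes. Another class held 6 of the members at over 10 times the arterial level.

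In the basement membrane, Col4a1, Col4a2 and Hspg2 were called higher in the Kif13b-/- library both with and without mixed barcodes, while most listed members were not called. Col4a1 (chr8:11198423-11312826, minus strand), a chain of the type IV collagen network, was at 395 and 649.6 CPM, a log2 ratio of 0.72 (0.55 to 0.89). Its partner chain Col4a2 (chr8:11312805-11449287, plus strand), whose promoter is shown above, was at 228 and 378 CPM (0.73, 0.51 to 0.95). Hspg2, which encodes the heparan sulfate proteoglycan perlecan, was at 224 and 342 CPM (0.61, 0.38 to 0.84). Without mixed barcodes the differences were larger, with 376 and 933 CPM for Col4a1 (1.31), 201 and 526 CPM for Col4a2 (1.39) and 148 and 381 CPM for Hspg2 (1.36). In the other endothelial barcodes the ratios were 0.90, 0.95 and 0.32. Without barcodes over 10000 UMIs they were 0.50, 0.46 and 0.27, all under 1.5-fold. Without the top barcode of each library the ratios were 0.66, 0.53 and 0.57, with Col4a2 and Hspg2 under 1.5-fold. A single Kif13b-/- barcode held 61 of the 300 Col4a2 UMIs. Capillary barcodes of WT and Kif13b-/- held more of each gene than arterial ones. They held Col4a1 at 1450 and 1906 CPM, Col4a2 at 851 and 1143 CPM and Hspg2 at 438 and 474 CPM. Unmixed Kif13b-/- members also held more of the capillary and venous panels than unmixed WT members, as given above. The part of this in the larger ratios without mixed barcodes was not tested. After thinning, a Col4a1 UMI was seen in 30.5% of WT and 30.9% of Kif13b-/- members, so the shares lay within each other's counting interval (26.0 to 35.4% and 22.4 to 40.4%).

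Over the whole list of elastic fibre and basement membrane genes, 6 of 27 were higher and 1 was lower, with a median of 0.25. The other higher members were Fbln1 (1.78), Ltbp2 (0.65) and Lamb1 (0.74), and the lower one was Ltbp1 (-0.63). Without mixed barcodes 4 of 21 were higher and 0 lower, with a median of 0.27. Those 4 were Col4a1, Col4a2, Hspg2 and Sparcl1, the last at 0.60.

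**Figure D3:**
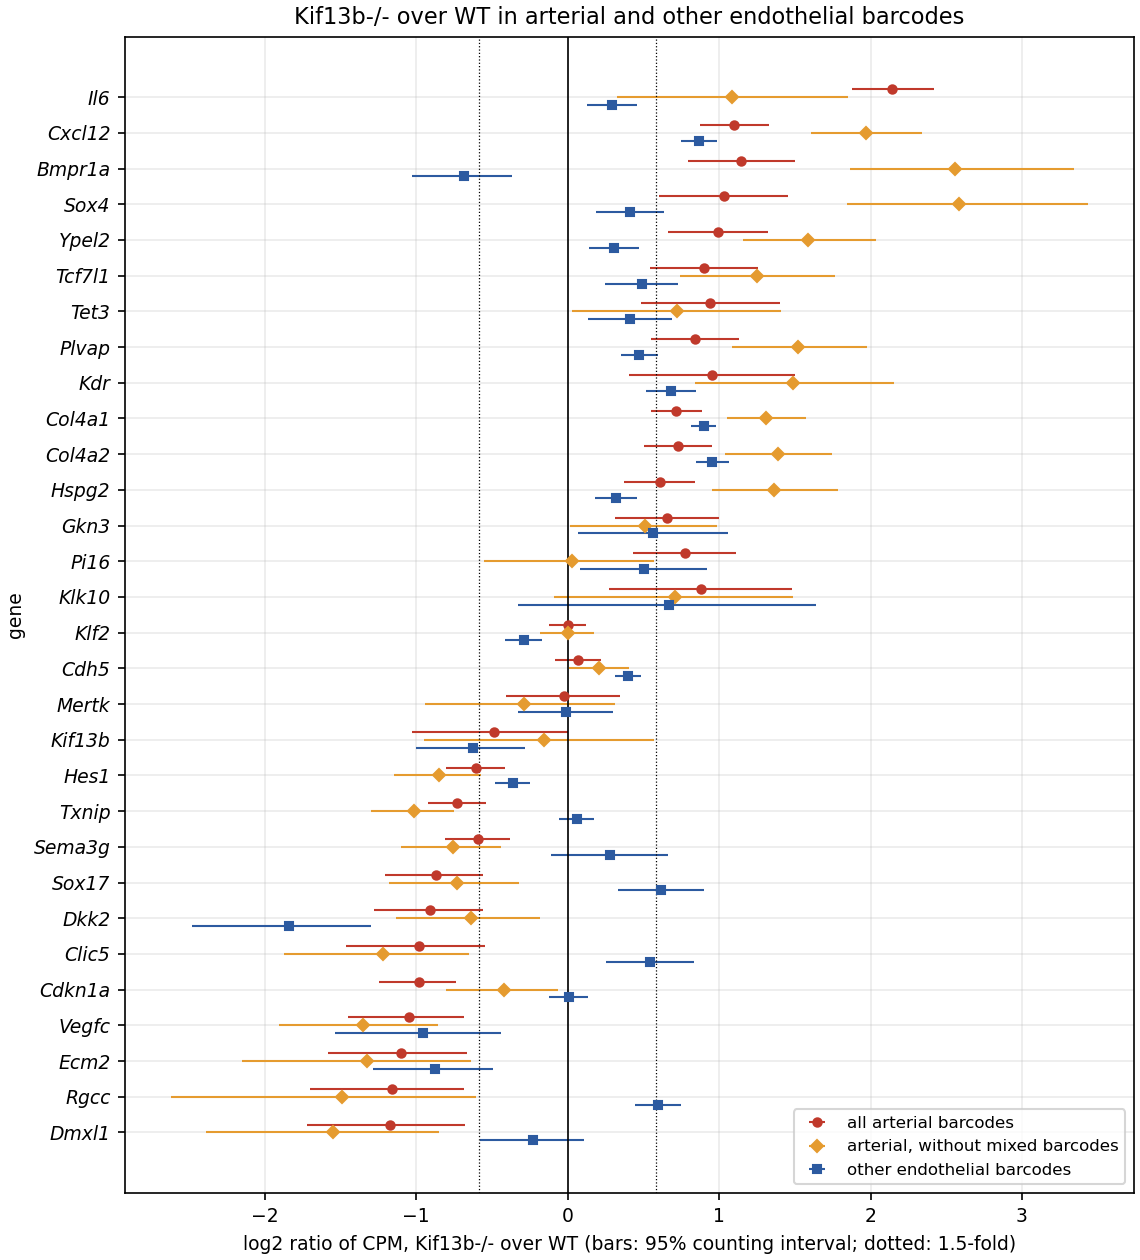
Log2 ratio of Kif13b-/- over WT for 30 genes in all arterial barcodes, in arterial barcodes without mixed ones and in the other endothelial barcodes, with 95% counting intervals; dotted lines mark 1.5-fold. Il6 (2.14), Cxcl12 (1.10) and Col4a1 (0.72) lie above 0 and Vegfc (-1.05) below 0 in all 3 sets, whereas Bmpr1a (1.15) and Rgcc (-1.16) have the opposite sign in the other endothelial barcodes.

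Large-artery and shear-responsive genes were called in both directions, where 3.62% of all compared genes were higher and 4.82% lower. Of 15 large-vessel genes, 3 were higher (Gkn3 0.66, Pi16 0.77, Klk10 0.88) and 1 was lower (Palmd, -0.81), with a median of 0.34. Without mixed barcodes 0 of 13 were higher and 1 was lower, with a median of -0.07. A Gkn3 UMI was seen in 6.53% (4.27 to 9.49%) of WT and 16.4% (10.0 to 24.6%) of Kif13b-/- members after thinning, against 0.220% and 0.543% of macrophage barcodes. Of 19 genes listed as raised by laminar shear, a response not measured here, 3 were higher and 2 lower, with a median of -0.07. Besides Pi16 and Klk10 the higher one was Cyp1b1, a cytochrome induced by shear (0.80). The lower ones were Txnip, an inhibitor of thioredoxin (-0.73), and Sema3g (-0.59). The place of Txnip in this list is doubtful, so its lower level is not read as a weaker response to shear. Sema3g is an arterial panel gene, so its level is a description, both here and without mixed barcodes below. Klf2 was level at 999 and 998 CPM (0.00). Klf4 (-0.24), Nos3 (0.14) and the anticoagulant receptor Thbd (0.16) were not called.

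Without mixed barcodes 7 of 18 genes of the shear list were lower (Thbd -0.70, Txnip -1.02, Ptgs2 -1.35, Sema3g -0.76, Gas6 -1.04, Timp3 -1.0 and Mef2c -0.70), with 1 higher (Hmox1, 1.0) and a median of -0.43. Klf2 remained at 0.00 there. The 7 lower genes and the median include Txnip, whose place in the list is doubtful. Of all genes compared without mixed barcodes, 7.42% were lower. Of 22 genes listed as raised by disturbed flow, 4 were higher (Sele, Selp, Ccl2 and Sox4) and 0 lower over all members, with a median of 0.27. Sele and Selp belong to the venous panel that the rule used, so their part in this count is a description. Without mixed barcodes 3 of 20 were higher (Thbs1 1.87, Sox4 2.58 and Nfkb1 0.96) and 1 was lower (Lox, -1.04), with a median of 0.24. The connective tissue growth factor gene Ccn2 was at 0.46 over all members and -0.18 without mixed ones. Sox4 was the member of the disturbed-flow list called in both sets of barcodes.

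In the arterial panel, Sox17 (-0.87, -1.21 to -0.56) and Sema3g (-0.59, -0.81 to -0.38) were called lower in the Kif13b-/- library. Gja5 (0.36, 0.15 to 0.56), Bmx (-0.40) and Stmn2 (-0.27) lay under 1.5-fold and were not called. These genes chose the members, so their levels are a description. After thinning, a Sox17 UMI was seen in 20.9% of WT and 9.09% of Kif13b-/- members, although Sox17 was higher in the other endothelial barcodes of the Kif13b-/- library (0.62, 0.33 to 0.90). The gate gene Cldn5 was at -0.40, and Cdh5 (0.07), Pecam1 (-0.11), Egfl7 (-0.20) and Tie1 (0.27) lay closer to 0. Of 29 arterial genes outside the rule, 1 was higher (Cxcl12) and 1 lower (Vegfc), with a median of -0.03. Without mixed barcodes 3 of 27 were higher (Gja4, Cxcl12 and Depp1) and 4 lower (Jag1, Vegfc, Alpl and Hspb1), with a median of -0.08.

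Among ligands and receptors of vessel growth, 1 of 21 genes was higher and 3 were lower. Vegfc (chr8:54077606-54187096, plus strand) was at 189 CPM in WT (306 UMIs in 145 barcodes) and 90.8 CPM in Kif13b-/- members (72 UMIs in 41 barcodes), a log2 ratio of -1.05 (-1.45 to -0.68). Without mixed barcodes it was -1.35 and in the other endothelial barcodes -0.96. It stayed lower in every setting, from -0.83 to -1.35, with a UMI in 17.2% (13.6 to 21.4%) of WT and 10.0% (5.10 to 17.2%) of Kif13b-/- members after thinning. The difference in Vegfc thus had the same sign in mixed and unmixed members and in the rest of the endothelium.

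Kdr (chr5:75932827-75978458, minus strand) was at 37.1 and 71.9 CPM (60 and 57 UMIs, 0.96), but 37 of the 57 Kif13b-/- UMIs lay in 1 barcode and the ratio was -0.33 without the top barcodes. The lower members were Vegfc, Pgf (-1.32), the placental growth factor, with 53 and 10 UMIs and a sign that turned after thinning (0.66), and Apln (-3.01), the apelin ligand, of which 54 of 57 WT UMIs lay in 1 barcode. Without the top barcodes Apln was at -0.18. In the Notch pathway 0 of 21 genes were higher and 1 was lower, with a median of -0.01. The lower one was the Notch target Hes1 (chr16:30064384-30067796, plus strand), at 556 and 364.5 CPM (-0.61, with -0.85 without mixed barcodes and -0.36 in other endothelial barcodes).

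Several receptors and regulators were higher in the Kif13b-/- library. Bmpr1a, a type I receptor for bone morphogenetic proteins (chr14:34410734-34503341, minus strand), was at 80.3 and 178 CPM (130 and 141 UMIs), a log2 ratio of 1.15 (lower bound 0.79), and 22 of the Kif13b-/- UMIs lay in 1 barcode. Without mixed barcodes it was at 37.4 and 223.5 CPM (2.56), and it stayed higher in every setting, from 0.74 to 2.56. In the other endothelial barcodes the ratio was -0.69. It was the single member called of 25 BMP and TGF-beta genes, whose median was -0.03.

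Sox4, a transcription factor linked to disturbed flow, was at 58.1 and 119 CPM (1.03, 0.60 to 1.46), and Plvap, the diaphragm protein of caveolae and fenestrae, at 132 and 236 CPM (0.84, 0.55 to 1.13). Both rested on deep barcodes, since without those over 10000 UMIs the ratios were -0.08 and -0.22. After thinning, 5.48% of WT and 4.55% of Kif13b-/- members had a Sox4 UMI. Ypel2 was at 97.0 and 193 CPM (0.99), and at 0.04 without the deep barcodes. Tet3, an enzyme of DNA demethylation, was at 52.5 and 101 CPM (0.94), and at 0.72 without mixed barcodes. Tcf7l1, a transcription factor of the Wnt pathway, was at 85.9 and 160 CPM (0.90), and at 1.25 without mixed barcodes. Thinned shares were higher for these last 2 genes as well, at 4.70% and 13.6% for Tet3 and 6.27% and 15.5% for Tcf7l1.

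The other named higher genes had too few UMIs in unmixed members for a comparison there, under 50 over both libraries. Serpina3n, a secreted protease inhibitor, was at 213 and 435 CPM (1.03), with 113 of 345 Kif13b-/- UMIs in 1 barcode and 26 and 9 UMIs in unmixed members. Sfrp4, a secreted Wnt antagonist, was at 61.2 and 125 CPM (1.03), with 1 and 0 UMIs in unmixed members. Of its 99 WT UMIs 61 lay in 1 barcode, and without the top barcodes its ratio was 2.28. Ecm1, an extracellular matrix protein, was at 141 and 253.5 CPM (0.85), with 16 and 7 UMIs in unmixed members. Dnah12, an axonemal dynein heavy chain, was at 43.9 and 103 CPM (1.24), with 19 and 11 UMIs in unmixed members.

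Among genes lower in the Kif13b-/- library, Rgcc, a cell cycle regulator of endothelium (chr14:79288756-79301645, minus strand), was at 117 and 51.7 CPM (189 and 41 UMIs), a log2 ratio of -1.16 (-1.70 to -0.68). Without mixed barcodes it was at -1.49, and in the other endothelial barcodes at 0.60. Without barcodes over 10000 UMIs it was at -0.44, under 1.5-fold. Dkk2, a secreted Wnt antagonist (chr3:132085292-132180304, plus strand), was at 195 and 103 CPM (-0.91), and lower in every setting, from -0.64 to -1.95. In the other endothelial barcodes it was at -1.84. The cyclin-dependent kinase inhibitor Cdkn1a was at 410 and 207 CPM (-0.98), with -0.42 without mixed barcodes and 0.01 in other endothelial barcodes. Inhba, a subunit of activin, was at 111 and 53.0 CPM (-1.06), and without mixed barcodes at 27.2 CPM in WT and 0 UMIs in Kif13b-/- members.

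The other named lower genes had varied roles. The protocadherin Pcdh17 was at 109 and 50.5 CPM (-1.09) and Pcdh9 at 132 and 63.1 CPM (-1.05), with -1.21 and -0.34 without mixed barcodes. Pcdh17 was at -0.22 after thinning. Ecm2, a matrix protein, was at 139 and 64.3 CPM (-1.10). Clic5, of the chloride intracellular channel family, was at 128 and 64.3 CPM (-0.98), and St8sia6, a sialyltransferase, at 165 and 90.8 CPM (-0.85). Dmxl1 was at 112 and 49.2 CPM (-1.17), and at -0.81 without the top barcodes, since 1 WT barcode held 50 of 181 UMIs. Hmgb2, a chromatin protein of cycling cells, was at 208 and 94.6 CPM (-1.13), with -0.66 without mixed barcodes. It was among 3 of 5 measured proliferation genes called lower, with Top2a (-1.09) and Stmn1 (-1.21). Top2a rested on 45 and 10 UMIs. Its interval held 0 without the top barcodes (-0.97, -2.35 to 0.11), and it was at 0.0211 with each barcode weighing the same.

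Other gene lists are set beside the 3.62% of all compared genes called higher and the 4.82% called lower. Against these shares, counts of 0 or 1 in a list are not read as results about that list. Junction genes had 0 of 19 in either direction, with a median of -0.11, and immediate early genes 0 of 21 (0.02), heat shock genes 0 of 15 and antigen presentation genes 0 of 18. Capillary and lipid-handling genes had 2 higher (Kdr and Plvap) and 2 lower (Rgcc and Meox2, -1.15) of 15. Of 14 lipid uptake genes 1 was higher, the sterol exporter Abcg1, at 37.7 and 93.3 CPM (1.31). Its sign turned after thinning (-0.10), where 4.96% of WT and 4.55% of Kif13b-/- members had a UMI. Of 19 vasoactive genes Npr1, the receptor of atrial natriuretic peptide, was higher (0.65) and the endothelin receptor Ednrb was lower (-1.29). Of 14 coagulation genes Plat, the tissue plasminogen activator, was lower (-0.67), as was Serpine2 (-0.72), which had 16 and 11 UMIs in unmixed members. The endothelial-to-mesenchymal list had 1 of 20 higher, Postn, at 91.5 and 258.6 CPM (1.5), with 4 and 8 UMIs in unmixed members. Of 19 hypoxia genes Bnip3 was lower (-1.12), and of 15 venous genes outside the rule 0 were called (median 0.22).

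The interferon list had 1 higher and 1 lower of 20. Iigp1 (0.62) had 42 of 118 Kif13b-/- UMIs in 1 barcode and was at 0.09 without the top barcodes. Ifi27l2a (-1.45) had 132 of 377 WT UMIs in 1 barcode and was at -1.03 without them. WT adipocyte barcodes held Ifi27l2a at 7648 CPM, and its part in the arterial value, beside the adipocyte markers given above, was not tested. In the kinesin-3 family 0 of 6 were called, with Kif13a at 0.41, Kif1b at 0.07 and Kif1c at 0.04, and of 13 genes linked to KIF13B only Kdr was. Of 3 measured Y-linked genes Eif2s3y was lower, at 63.7 and 37.8 CPM. Mitochondrially encoded transcripts had a median of 0.38, with mt-Nd2 (0.68) and mt-Nd3 (0.96) called of 13. Their median was 0.56 without mixed barcodes and -0.01 in the other endothelial barcodes.

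**Figure D4:**
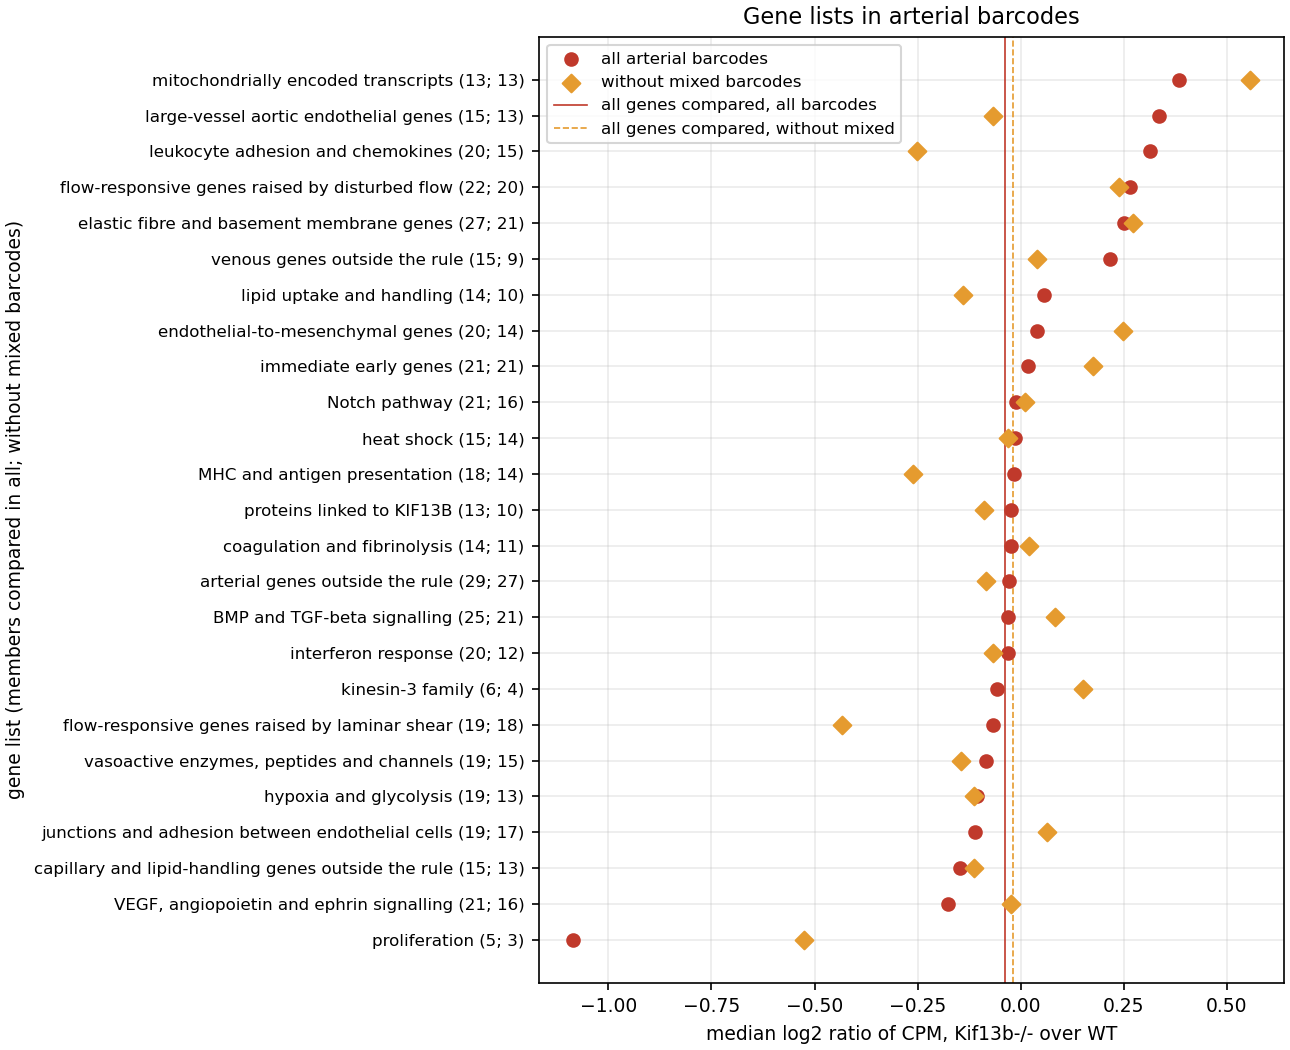
Median log2 ratio of Kif13b-/- over WT for 25 gene lists in arterial barcodes, with all members and without mixed barcodes; lines mark the medians of all genes (-0.04 and -0.02). Leukocyte adhesion genes and chemokines lie at 0.31 with all members (20 genes compared) and at -0.25 without mixed barcodes (15 genes). Elastic fibre and basement membrane genes lie at 0.25 (27 genes) and 0.27 (21 genes).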

How the data were processed

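The deposited files, 1 filtered matrix of raw UMI counts per library, were made by the authors with Cell Ranger 8.0.1 per the file headers, on mm10 per the submitters' processing notes. The annotation behind the 33696 features was not stated in these sources, and 52 symbols are shared by several features. Unused value columns numbered 0. The members and the 26 gene lists were chosen with earlier results of these data known, and a gene held by 2 lists counts under both.

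UMIs were summed over the arterial, venous and capillary barcodes of each library and divided by the summed UMIs of the class (CPM). A prior count of 0.5 entered the log2 ratios. Intervals are exact Poisson, conditional binomial or Clopper-Pearson intervals at 95%. They cover counting error only, and no p-values were computed with 1 library per group. Genes with at least 50 UMIs were compared. A class outside the endothelium was assigned by at least 3 UMIs of its own markers, strictly the most. For shares of barcodes with a UMI each barcode was thinned to 1000 UMIs (seed 1), and every member was deep enough. Macrophage barcodes thinned alike are the reference.

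Gate genes, panel genes, Kif13b, Kdr and Mertk were named whatever their values. By value, the genes named were the 15 most arterial and 10 least arterial genes and, between genotypes, the 12 highest and 12 lowest called genes with at least 100 CPM and 10 barcodes that no class outside the endothelium held at over 10 times the level, leaving out ribosomal, mitochondrial, haemoglobin, receptor segment, sex-linked and uncharacterised genes. From each list 2 to 4 called members were named, and up to 8 by UMIs for the arterial, flow and junction lists. Names outside this rule (list members with their values and genes of 1 dominant barcode) were chosen after their values were seen. Of these sets only the members that the text needs are printed.

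Scrublet (scanpy 1.11.5) marked 1 and 2 barcodes with its automatic threshold and so had not worked. A fallback at 0.8% per 1000 barcodes marked 21 and 0 members. Doublets were kept in the values reported and left out as an alternative. In all 15 alternatives were run, and 4 more were added after seeing the data: shared barcodes out, barcodes over 10000 UMIs out, lymphatic-marker barcodes out, and the top barcode of each gene out. The call procedure was tested on simulated counts. Coordinates are those of GENCODE M21 on mm10. Python 3.11.15, numpy 2.4.6, scipy 1.17.1, pandas 2.3.3 and matplotlib 3.10.9 were used.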

Additional observations from a re-analysis of the deposited data

Results flagged for a closer look

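For 4 named genes the arterial and the other endothelial barcodes differed between genotypes in opposite directions. With 1 library per genotype the difference between the classes was not tested. Pgf, the placental growth factor, had a log2 ratio of Kif13b-/- over WT of -1.32 in arterial and 1.19 in the other endothelial barcodes. Its arterial value rested on 53 WT and 10 Kif13b-/- UMIs, 18 of the former in 1 barcode, and was -0.27 (-1.84 to 1.01) without mixed barcodes and 0.66 after thinning. Bmpr1a was at 1.15 in arterial and -0.69 in the other endothelial barcodes. Rgcc was at -1.16 and 0.60, with an arterial value of -0.44 without barcodes over 10000 UMIs. Apln was at -3.01 and 3.04, with 54 of its 57 arterial WT UMIs in 1 barcode and an arterial ratio of -0.18 without the top barcodes.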

How the results depend on the processing

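The arterial share of the endothelium, 1.19 as a ratio of Kif13b-/- over WT, was 0.909 with the gate at 3000 CPM, 0.759 without mixed barcodes, 0.707 over all filtered barcodes and 0.695 with the gate and panels applied after thinning, and 1.08 to 1.40 in the other settings. Genes higher and lower in Kif13b-/- barcodes numbered 489 and 723 with each barcode weighing the same (by ratio alone), 61 and 74 after thinning, and 43 and 78 with at least 200 UMIs. Genes higher and lower in arterial barcodes numbered 41 and 48 without barcodes over 10000 UMIs, 9 and 23 after thinning, and 30 and 48 with at least 200 UMIs. For 58 genes named between genotypes under 14 settings, 705 of 810 values kept their sign past 1.5-fold, 83 kept it under 1.5-fold and 22 had the opposite sign. The opposite values were, after thinning, Abcg1 -0.10, Cyp1b1 -0.0746, Iigp1 -0.49, Pgf 0.66 and Sox4 -0.0543. Without mixed barcodes they were Apln 2.17, Ecm1 -0.19, Serpina3n -0.53, Serpine2 0.43, Serpinf1 -0.24 and Sfrp4 -0.64, where all but Serpinf1 had under 50 UMIs (Sfrp4 1 and 0, Apln 1 and 3) and all 6 counting intervals held 0, so these signs are no measured reversals. With the gate at 3000 CPM they were Dnah12 -0.19, Ecm1 -0.0474, Iigp1 -0.30 and Serpinf1 -0.17. Without barcodes over 10000 UMIs they were Ifi27l2a 0.16, Kdr -0.32, Plvap -0.22 and Sox4 -0.0806. With equal weights they were Kdr -0.15 and Top2a 0.0211, and without the top barcodes Kdr -0.33. The lower counts after thinning and with at least 200 UMIs come with fewer UMIs or fewer genes compared, and the other causes were not tested. Depth limits the Kif13b-/- library most, with 110 members and 792780 UMIs, and only 32 members that were not mixed. No paired analysis was possible because each genotype has 1 library.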
